A study of Mus musculus with 6 samples.

Results

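The genes described here are 35 mouse chemokine ligands, the secreted and membrane-bound proteins that guide leukocytes. They were taken from the 45679 genes of the abundance tables by their NCBI Gene ID, and all 35 were found in each of 6 libraries. Of these, 30 reached a TPM of 1 (the abundance of a gene's transcripts, scaled for their length and for the library) in at least 1 library, and Ccl20, Cxcl3, Cxcl11, Cxcl15 and Ppbp, under 1 TPM in every library, are stated as not expressed. Messenger RNA was sequenced from whole ovaries of wild type mice of the BDF1 strain, a cross between inbred strains. There are 3 groups of 2 libraries by the labels: young mice of 8 weeks given phosphate-buffered saline (PBS), old mice of 65 weeks given PBS, and old mice of 65 weeks given MIT-001, a compound that scavenges reactive oxygen species in mitochondria. Injections were intraperitoneal for 7 days, with MIT-001 at 0.5 mg/kg. The labels do not say how many animals gave each library or whether animals were pooled, so the p-values reflect only how far these libraries spread.

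Chemokines bind G protein-coupled receptors on leukocytes and set up the gradients along which these cells move. CC ligands such as Ccl2 attract mainly monocytes and lymphocytes, CXC ligands such as Cxcl1 attract neutrophils, and the interferon-induced Cxcl9 and Cxcl10 attract activated T cells. Others are made without inflammation: Cxcl12 by stromal cells, and Ccl21a by lymphatic endothelium and lymphoid stroma, where it draws dendritic cells and naive T cells. In the ovary, leukocytes that respond to such cues take part in ovulation and in the clearing of atretic follicles and corpora lutea.

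Upstream sequences are shown for 5 ligands because they set members with a wide spread between libraries (Cxcl1, Cxcl2), a neighbour that was not expressed (Cxcl3) and an interferon-induced ligand (Cxcl10) beside a ligand whose groups overlapped throughout (Cxcl12). Each is the 250 bases before the annotated start, 5′ to 3′, from RefSeq (GRCm38.p6). Capitals mark matches, on either strand, to the NF-kB consensus, the interferon-stimulated response element (GAAA, any 2 bases, GAAA) or the AP-1 site (TGANTCA). The windows are chr5:90890995-90891244, chr5:90903649-90903898 and chr5:90785851-90786100 on the plus strand, chr5:92348890-92349139 on the minus strand and chr6:117168285-117168534 on the plus strand.
Cxcl1: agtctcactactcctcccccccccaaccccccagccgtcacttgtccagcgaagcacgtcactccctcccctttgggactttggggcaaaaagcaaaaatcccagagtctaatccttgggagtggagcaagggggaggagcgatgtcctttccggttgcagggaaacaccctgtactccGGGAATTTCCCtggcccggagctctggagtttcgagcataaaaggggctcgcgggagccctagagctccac
Cxcl2: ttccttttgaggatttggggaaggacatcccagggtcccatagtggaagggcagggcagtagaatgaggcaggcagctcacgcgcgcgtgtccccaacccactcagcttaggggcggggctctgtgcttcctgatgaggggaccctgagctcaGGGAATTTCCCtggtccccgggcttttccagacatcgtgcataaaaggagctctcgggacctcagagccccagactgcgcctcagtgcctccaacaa
Cxcl3: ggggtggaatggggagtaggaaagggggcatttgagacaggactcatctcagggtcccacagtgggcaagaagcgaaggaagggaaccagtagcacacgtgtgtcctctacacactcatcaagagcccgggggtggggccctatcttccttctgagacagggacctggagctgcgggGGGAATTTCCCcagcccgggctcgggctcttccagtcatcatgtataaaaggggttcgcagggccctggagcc
Cxcl10: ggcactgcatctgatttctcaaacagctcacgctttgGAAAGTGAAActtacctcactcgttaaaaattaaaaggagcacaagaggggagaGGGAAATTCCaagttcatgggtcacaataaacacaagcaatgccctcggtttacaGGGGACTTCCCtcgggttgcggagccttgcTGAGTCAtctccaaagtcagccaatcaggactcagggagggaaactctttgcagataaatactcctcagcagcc
Cxcl12: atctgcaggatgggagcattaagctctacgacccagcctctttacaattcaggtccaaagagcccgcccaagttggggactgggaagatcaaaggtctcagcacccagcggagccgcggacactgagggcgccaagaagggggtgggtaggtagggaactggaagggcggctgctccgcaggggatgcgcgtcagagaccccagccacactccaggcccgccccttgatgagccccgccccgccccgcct

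Cxcl1, Cxcl2 and Cxcl3 each held the run GGGAATTTCCC, which matches the NF-kB consensus, beginning 71, 97 and 73 bases before the start. Cxcl10 held a match to the interferon-stimulated response element 213 bases before the start, NF-kB matches from 159 and 104 bases, and an AP-1 match from 74 bases. The Cxcl12 window held none of the 3 motifs in these letters. Of the 35 ligands, 25 matched an entry of the RefSeq table. Ccl2, Ccl4, Ccl5, Ccl7, Ccl11, Ccl24, Cxcl5, Cxcl11, Cxcl16 and Cxcl17 had none. The NF-kB consensus was present in 6 of the 25 (Ccl9, Ccl20, Cxcl1, Cxcl2, Cxcl3 and Cxcl10), or 24%, and in 7.28% of the 32536 distinct windows of the same length. The interferon motif was in Ccl19, Cxcl10 and Cxcl14 and in 2.98% of all windows. The AP-1 site was in Ccl9, Cxcl10 and Ppbp and in 6.73% of all windows. The letters TATAAA, not capitalised above, were in 10 of the 25 and in 12.3% of all windows. Motifs may overlap each other, and a match is a description of the letters, not a site of binding. Cxcl3 shared its match with Cxcl1 and Cxcl2 but was not expressed, with 0.314 TPM as its highest value.

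The libraries were of similar depth, with 6.34 to 7.14 gigabases of aligned reads implied by the deposited coverage, and 14317 to 16304 genes at 1 TPM or more. Oocyte and granulosa cell markers were detected in every library, but between old PBS and young PBS their levels went against the age labels. Summed TPM of 6 oocyte genes was 367.3 to 389.4 in old PBS as labelled, 29.8 to 244.4 in young PBS as labelled and 34.1 to 67.6 in old MIT-001. For old MIT-001 against young PBS all 6 oocyte genes had a log2 fold change below 0, beside 30.7% of all genes. Summed TPM of 6 granulosa cell genes was 4718 to 6007 in old PBS, 2266 to 2283 in young PBS and 1660 to 2613 in old MIT-001. Summed TPM of 7 macrophage genes was 133.5 to 155.5, 799.7 to 803.4 and 345.7 to 368.7 in the same order. All groups are therefore named as labelled, and each direction below holds for the libraries as labelled only.

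Ligand levels spanned a wide range in these ovaries. On the length-scaled TPM scale Ccl21a was the highest ligand in all 6 libraries, and Ccl21a, Cxcl12 and Cxcl14 together held 87.8% and 80.8% of all ligand TPM in both libraries labelled old PBS. Their share was 50.1% and 66.2% under the young PBS label and 68.4% and 68.8% under old MIT-001. The 32 other ligands summed to 63.7 and 78.4 TPM under the old PBS label, against 508.8 and 196.6 TPM under young PBS and 226.9 and 219.4 TPM under old MIT-001. No expressed ligand had its highest value in a library labelled old PBS, and 22 of the 30 had their lowest value there (16 in replicate 1 and 6 in replicate 2). Replicate 1 labelled young PBS held the highest value of 16 ligands. Summed markers of several cell types were also highest in that library. The 5 fat cell markers summed to 198.3 TPM there, mostly Fabp4 at 160.8 TPM, and to 28 to 47.5 TPM in the 5 others. The 5 mast cell markers summed to 120.4 TPM and 7.89 to 62.9 TPM. Not every marker was highest there. The fat cell marker Plin1 was at 9.16 and 19.25 TPM in young PBS, 23.8 and 32.5 TPM in old PBS, and 7.78 and 20.1 TPM in old MIT-001. The mast cell marker Kit was highest in old PBS. The part of these markers in the ligand values was not tested.

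**Figure D1:**
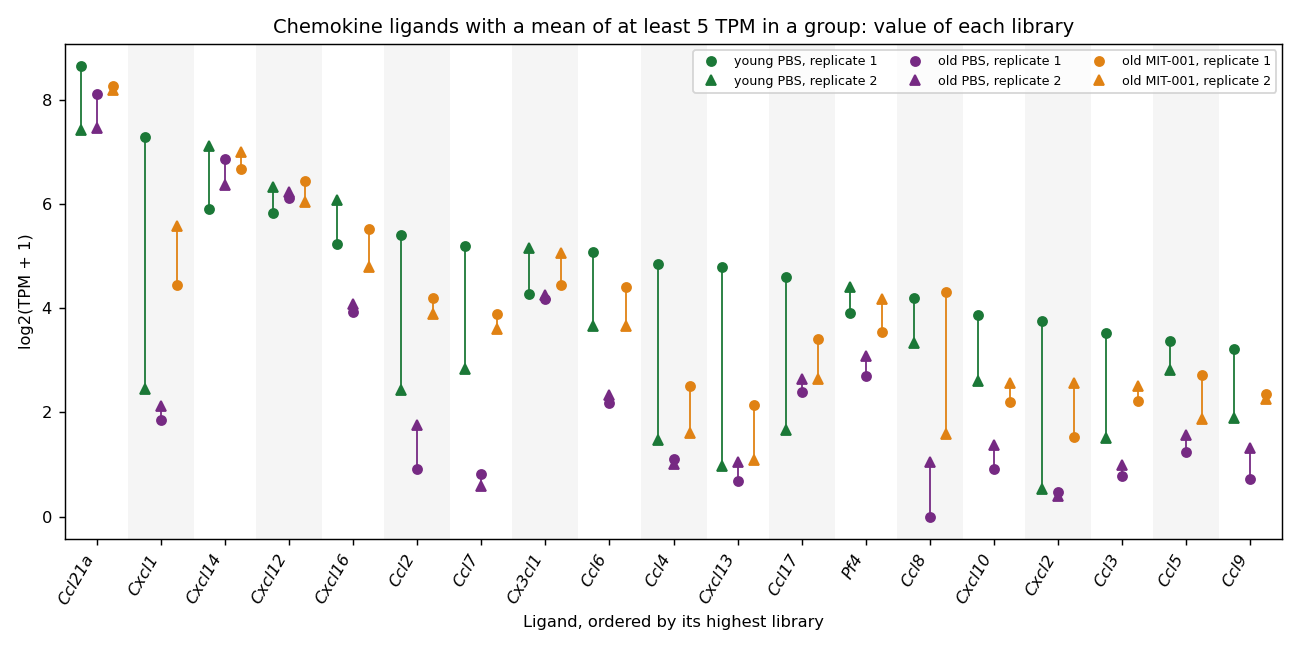
Level of each of the 19 ligands with a mean of at least 5 TPM in a group, as log2(TPM + 1) on the vertical axis, with 1 point per library and a line joining the 2 libraries of a group. The purple points (old PBS as labelled) lie low for most ligands, and those of Ccl21a, Cxcl14 and Cxcl12 lie among the other libraries; Cxcl1 spans 4.43 to 155.5 TPM within young PBS.

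The 3 groups were compared gene by gene on log2(TPM + 1) with limma over 16473 genes that reached 1 TPM in at least 2 libraries, with the Benjamini-Hochberg adjustment across all of them and a threshold of 0.05. Of the 35 ligands, 28 entered the test, and Ccl22 and Cxcl5 stayed out with the 5 that were not expressed. A ligand can enter through the groups where it is high alone: 8 of the 28 were under 1 TPM in both libraries labelled old PBS, and 13 were at 1 TPM or more in all 6. Counts over the 28 are therefore a description. The 3 comparisons share libraries, so their values are given side by side and are not independent.

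For the libraries labelled old PBS against those labelled young PBS, a contrast labelled as age, no ligand passed the adjusted threshold in either direction (smallest adjusted p 0.210), where 0.0243% of all genes were called lower and 0.0121% higher. At an unadjusted p below 0.05, 12 ligands (42.9%) were lower and 0 higher, beside 3.55% and 14.6% of all genes. In 20 ligands (71.4%) both libraries labelled old PBS lay below both labelled young PBS, beside 11% of all genes, and in 0 they lay above, beside 38.1%. Among the 13 ligands at 1 TPM or more in all 6 libraries, 8 did not overlap in this way and 4 were lower at the unadjusted p. The median log2 fold change was -1.47 for the ligands and 0.23 for all genes.

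That contrast rested on single libraries for its size. Leaving out a library leaves its group with 1, which limma then assumes to vary like the other groups, and this holds for every such value below. Without replicate 1 labelled young PBS the ligand median was -0.74, 10 ligands were lower and 0 higher at the unadjusted p (beside 9.66% and 23.6% of all genes), and Ccl7 and Cxcl16 passed the adjusted threshold, as 1.78% of all genes did in that direction. Without replicate 2 labelled young PBS 19 ligands were lower and 1, Cxcl14, higher at the unadjusted p (beside 6.68% and 17.6%), and Ccl7 passed, beside 0.0486% of all genes. Leaving out replicate 1 labelled old PBS gave 6 lower ligands and 0 higher (beside 2.01% and 10.3%). Centring each library on its median moved the median of all genes to -0.093 and the share of higher genes among those at an unadjusted p below 0.05 from 80.5% to 36.2% (52.7% after quantile normalization). The ligands stood at 24 lower and 4 higher with TPM as deposited, beside 31.9% and 68.1% of all genes, at 28 and 0 after centring, and 25 and 3 after quantile normalization.

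For the libraries labelled old MIT-001 against those labelled old PBS, a contrast labelled as treatment, again no ligand passed the adjusted threshold (smallest adjusted p 0.208), where 0.0182% of all genes were called higher and 0% lower. At an unadjusted p below 0.05, 11 ligands (39.3%) were higher and 0 lower, beside 7.45% and 4.36% of all genes. Both libraries labelled old MIT-001 lay above both labelled old PBS in 23 ligands (82.1%), beside 27.2% of all genes, and below them in 0, beside 24.2%. The fold change was above 0 for all 28 with TPM as deposited, beside 53.5% of all genes with 46.5% below 0, and for 26 after centring or quantile normalization. The median log2 fold change was 0.99 for the ligands and 0.03 for all genes. Among the 13 ligands at 1 TPM or more throughout, 10 did not overlap and 3 were higher at the unadjusted p. The share of all genes at that level was not computed here either.

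In that contrast 3 ligands passed when only the 4 libraries compared were fitted: Ccl7 (adjusted p 0.0322), Ccl2 (0.0435) and Cxcl1 (0.0466). In that fit 1.22% of all genes passed as higher and 0.941% as lower. Leaving out replicate 1 or replicate 2 labelled young PBS takes the spread from the same 4 libraries, so these fits add no separate result. Their log2 fold changes were the same as in that fit, at 3.04 for Ccl7, 2.71 for Ccl2 and 3.03 for Cxcl1. Over all alternatives the adjusted p ranged from 0.0300 to 0.829 for Ccl7, from 0.0418 to 0.962 for Ccl2 and from 0.0437 to 1.0 for Cxcl1. The count of higher ligands at the unadjusted p was 3 or 4 when replicate 1 or 2 labelled old PBS was left out (beside 3.64% and 5.08% of all genes), and 5 when replicate 1 labelled old MIT-001 was left out (4.84%). Of all genes at an unadjusted p below 0.05, 63.1% were higher with TPM as deposited, 52.4% after centring and 45.6% after quantile normalization.

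For the libraries labelled old MIT-001 against those labelled young PBS, 0 ligands passed the adjusted threshold by limma (smallest adjusted p 0.379) and 0 passed at an unadjusted p below 0.05, where 0% of all genes were called at the adjusted threshold and 17.1% were higher and 0.813% lower at the unadjusted p. Both libraries labelled old MIT-001 lay below both labelled young PBS for Ccl5, Ccl12, Ccl24 and Cxcl10 (14.3% of the ligands, beside 6.56% of all genes) and above them for Ccl28 (3.57%, beside 37.3%). The median log2 fold change was -0.11 for the ligands and 0.24 for all genes. Its sign turned with 1 library: leaving out young PBS replicate 1 gave 0.39, and leaving out young PBS replicate 2 gave -0.44. At the unadjusted p, 7 ligands were higher and 1 lower in the first case (beside 24.9% and 8.24% of all genes), and 1 was higher and 10 lower in the second (beside 20.3% and 5.43%). Centring moved the median of all genes to -0.17 and the share of higher genes at an unadjusted p below 0.05 from 95.5% to 44.2% (63.5% after quantile normalization). The ligands stood at 13 higher and 15 lower with TPM as deposited, beside 69.3% and 30.7% of all genes, at 3 and 25 after centring, and 7 and 21 after quantile normalization.

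**Figure D2:**
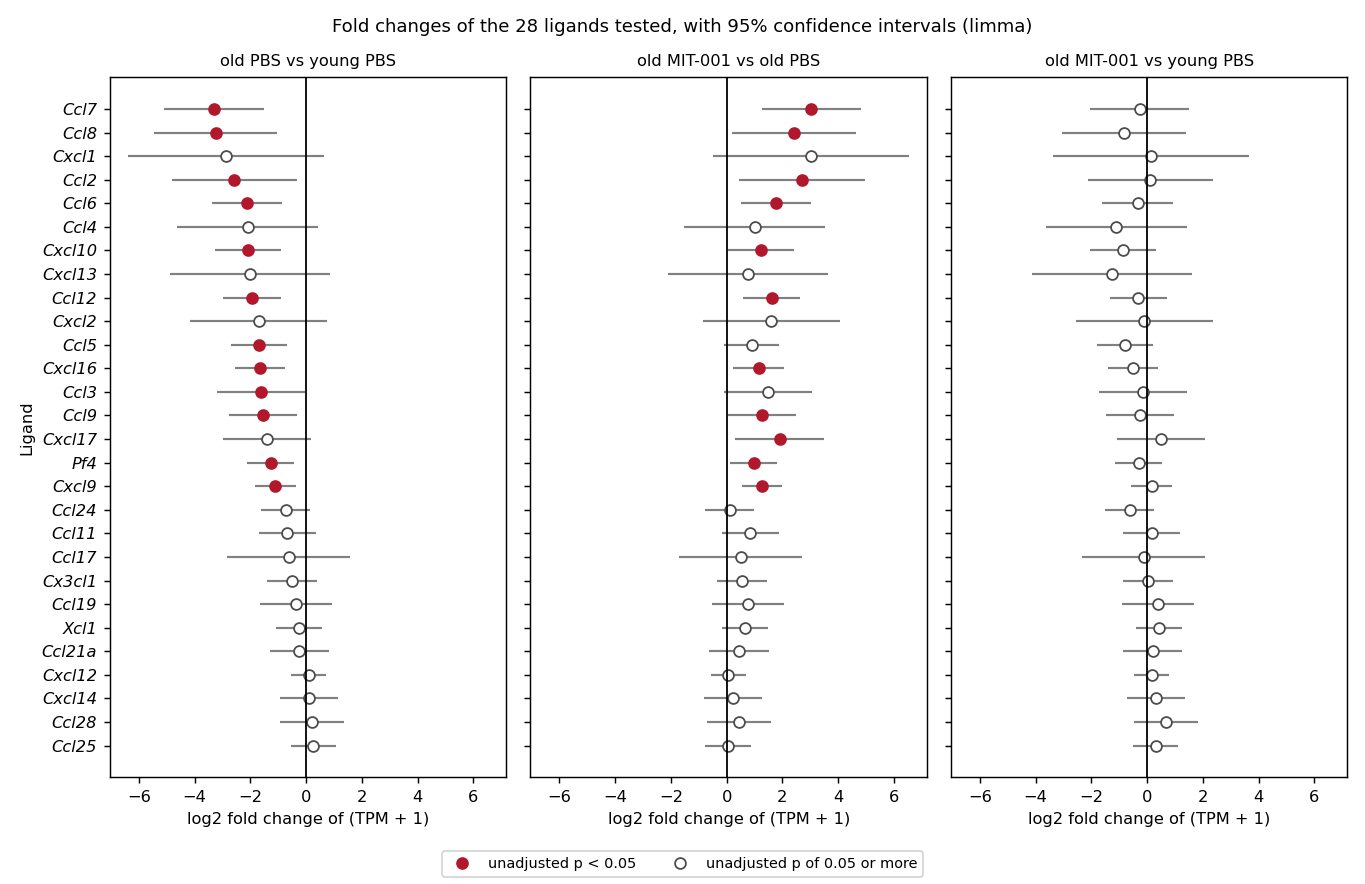
Log2 fold change of (TPM + 1) on the horizontal axis for the 28 ligands tested, 1 panel per comparison, with the limma 95% confidence interval as a bar and filled points for an unadjusted p below 0.05. The filled points number 12 to the left of 0 in the first panel, 11 to the right in the second and 0 in the third, and no ligand passed the adjusted threshold.

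In 10 of the 11 inflammatory CC ligands, which recruit mainly monocytes, macrophages and T cells, both libraries labelled old PBS lay below the 4 other libraries, as they did in 8.08% of all genes tested. All 7 macrophage markers lay in that order too, and their part in the ligand values was not tested. Ccl7 (Gene ID 20306), a monocyte attractant, stood at 35.7 and 6.10 TPM under the young PBS label, 0.766 and 0.503 TPM under old PBS, and 13.8 and 11.1 TPM under old MIT-001. The old PBS libraries lay well below all others, and the MIT-001 libraries lay between the 2 young ones. Its log2 fold change was -3.31 ± 0.73 (SE) for old PBS against young PBS (limma, adjusted p 0.210), with -2.12 (0.0416) without replicate 1 and -4.49 (0.0432) without replicate 2 labelled young PBS. Both of these set old PBS against a single young library, with the spread taken from the other groups. Over all alternatives of that contrast the adjusted p ranged from 0.0416 to 0.867. It was 3.04 ± 0.73 for old MIT-001 against old PBS (0.212) and, between old MIT-001 and young PBS, -0.27 ± 0.73 (0.904).

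Ccl2, the main ligand of the monocyte receptor Ccr2, was at 41.3 and 4.39 TPM in young PBS, at 0.889 and 2.37 TPM in old PBS, and at 17.2 and 13.9 TPM in old MIT-001. No old PBS value reached those of the 4 other libraries, and 1 young library exceeded the other 9.41-fold. The log2 fold changes were -2.58 ± 0.92 for old PBS against young PBS (adjusted p 0.247) and 2.71 ± 0.92 for old MIT-001 against old PBS (0.336). Without replicate 1 labelled young PBS the first was -1.10, and without replicate 2 it was -4.07.

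Ccl8, another monocyte attractant, was at 17.2 and 9.11 TPM in young PBS, listed at 0 and at 1.06 TPM in old PBS, and at 18.7 and 1.99 TPM in old MIT-001. The 2 MIT-001 libraries differed more from each other than the young libraries did, and the lower one was close to old PBS. Its log2 fold changes were -3.24 ± 0.91 for old PBS against young PBS (adjusted p 0.224) and 2.42 ± 0.91 for old MIT-001 against old PBS (0.378). Ccl12, a mouse relative of Ccl2, was at 5.06 and 3.86 TPM in young PBS, listed at 0 and at 0.998 TPM in old PBS, and at 3.83 and 2.93 TPM in old MIT-001. The 3 groups did not overlap for Ccl12, with old MIT-001 in the middle, but its higher library was just under the lower young one. The log2 fold change of Ccl12 was -1.94 ± 0.42 (0.210) for old PBS against young PBS and 1.63 ± 0.42 (0.236) for old MIT-001 against old PBS. Between old MIT-001 and young PBS it was -0.31 ± 0.42 (adjusted p 0.778).

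Ccl6, expressed by macrophages and other myeloid cells, stood at 32.9 and 11.6 TPM in young PBS, 3.51 and 4.05 TPM in old PBS, and 20.1 and 11.7 TPM in old MIT-001. Its old PBS libraries agreed closely and lay below all others. Log2 fold changes of -2.12 ± 0.52 (adjusted p 0.212) for old PBS against young PBS and, in turn, of 1.78 ± 0.52 (0.272) for old MIT-001 against old PBS were fitted. Ccl9, a myeloid ligand of the receptor Ccr1, stood at 8.28 and 2.70 TPM, 0.651 and 1.48 TPM, and 4.08 and 3.76 TPM in the same order. It followed the same order of groups at a lower level. The log2 fold changes were -1.53 ± 0.50 (0.231) and 1.28 ± 0.50 (0.402). An antisense gene, E230016K23Rik, overlaps all 5202 bases of Ccl6 and reached 10.2 TPM, and reads of the 2 cannot be told apart without strand.

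Ccl3 and Ccl4, which activated macrophages and lymphocytes make, lie on opposite strands and overlap by 755 bases. Ccl3 was at 10.4 and 1.83 TPM in young PBS, 0.706 and 0.994 TPM in old PBS, and 3.65 and 4.69 TPM in old MIT-001. Ccl4 was at 27.8 and 1.77 TPM, 1.16 and 1.01 TPM, and 4.70 and 2.06 TPM in the same order. For both, replicate 1 labelled young PBS was far above the rest and replicate 2 was near old PBS. Old PBS against young PBS gave log2 fold changes of -1.62 ± 0.65 for Ccl3 (adjusted p 0.269) and -2.10 ± 1.04 for Ccl4 (0.342). Without replicate 1 labelled young PBS they were -0.62 and -0.41. Old MIT-001 against old PBS gave 1.48 ± 0.65 for Ccl3 (0.454) and 1.00 ± 1.04 for Ccl4 (0.846).

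Ccl5, a T cell product, was at 9.28 and 6.06 TPM in young PBS, 1.35 and 1.96 TPM in old PBS, and 5.58 and 2.67 TPM in old MIT-001. The groups did not overlap, with young PBS highest and old PBS lowest. Its log2 fold changes were -1.69 ± 0.41 for old PBS against young PBS (adjusted p 0.212), 0.90 ± 0.41 for old MIT-001 against old PBS (0.470) and -0.79 ± 0.41 between old MIT-001 and young PBS (0.379). Ccl11, the eosinophil attractant eotaxin, ranged from 1.34 to 4.31 TPM, and Ccl24, a second eosinophil attractant, from 0.480 to 2.56 TPM. Neither passed at an unadjusted p below 0.05.

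Among the 6 CXC ligands directed at neutrophils, Cxcl1 and Cxcl2 were expressed, and Cxcl5 reached 1.03 TPM in a single library. Cxcl1 (Gene ID 14825), a ligand of Cxcr2, was at 155.5 and 4.43 TPM in young PBS, 2.60 and 3.38 TPM in old PBS, and 20.8 and 46.9 TPM in old MIT-001. The 2 young libraries differed 35.1-fold, more than any 2 group means, and replicate 2 was near old PBS. Old PBS against young PBS gave a log2 fold change of -2.88 ± 1.44 (adjusted p 0.348), with -0.45 without replicate 1 and -5.30 without replicate 2 labelled young PBS. Old MIT-001 against old PBS gave 3.03 ± 1.44 (0.495), with a 95% interval from -0.49 to 6.54.

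Cxcl2, a further Cxcr2 ligand released early in inflammation, stood at 12.4 and 0.441 TPM in young PBS, 0.395 and 0.316 TPM in old PBS, and 1.88 and 4.88 TPM in old MIT-001. The order of the libraries was that of its neighbour Cxcl1, but for the 2 labelled old PBS. The log2 fold changes were -1.70 ± 1.01 for old PBS against young PBS (adjusted p 0.416) and 1.60 ± 1.01 for old MIT-001 against old PBS (0.646). Without replicate 1 labelled young PBS the first was -0.088. Cxcl3, Cxcl15 and Ppbp, the platelet basic protein, stayed under 1 TPM in every library, with highest values of 0.314, 0.0259 and 0.843 TPM. The receptors of these ligands were low as well: Cxcr1 was listed at 0 throughout and Cxcr2 did not exceed 0.626 TPM.

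The interferon-induced CXC ligands Cxcl9 and Cxcl10 bind Cxcr3 on activated T and NK cells. Cxcl10 was at 13.6 and 5.04 TPM in young PBS, 0.881 and 1.60 TPM in old PBS, and 3.59 and 4.90 TPM in old MIT-001. The 3 groups did not overlap, and replicate 2 labelled old MIT-001 was just under the lower young library. Its log2 fold changes were -2.09 ± 0.49 for old PBS against young PBS (adjusted p 0.211), 1.24 ± 0.49 for old MIT-001 against old PBS (0.403) and -0.85 ± 0.49 between old MIT-001 and young PBS (0.431). Cxcl9 was at 1.69 and 1.27 TPM, 0.153 and 0.138 TPM, and 1.58 and 1.96 TPM in the same order of groups. Its values were low, but within each group they were close together. The log2 fold changes were -1.11 ± 0.30 (0.222) and 1.27 ± 0.30 (0.208). Cxcl11, the third ligand of Cxcr3, did not exceed 0.136 TPM. Cxcl10 and Cxcl11 lie within Art3, transcribed from the opposite strand and present at up to 21.6 TPM, so part of their reads cannot be assigned without strand.

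Cxcl12, Cxcl14 and Ccl21a, abundant ligands with homeostatic roles, had log2 fold changes from -0.24 to 0.44, with 95% intervals that included 0. Cxcl12, a retention signal for cells that carry Cxcr4, was at 55.6 and 79.1 TPM in young PBS, 67.9 and 74.4 TPM in old PBS, and 85.6 and 64.7 TPM in old MIT-001. The groups overlapped throughout. Its log2 fold change was 0.10 for old PBS against young PBS with a 95% interval from -0.53 to 0.72, 0.07 for old MIT-001 against old PBS with an interval from -0.56 to 0.69, and 0.16 between old MIT-001 and young PBS (-0.46 to 0.79). Each of these signs turned after centring, at -0.22, -0.028 and -0.25.

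Cxcl14, an epithelial and stromal ligand, was at 58.6 and 137.0 TPM in young PBS, 115.9 and 80.8 TPM in old PBS, and 100.9 and 126.7 TPM in old MIT-001. Both the lowest and the highest value were in libraries labelled young PBS. Its log2 fold change was 0.11 ± 0.43 for old PBS against young PBS and 0.22 ± 0.43 for old MIT-001 against old PBS, and the first was -0.21 after centring. Ccl21a was at 396.8 and 169.5 TPM in young PBS, 273.1 and 175.3 TPM in old PBS, and 305.2 and 291.2 TPM in old MIT-001. Its 2 fold changes on the log2 scale were -0.24 ± 0.44 and 0.44 ± 0.44 for the same contrasts (adjusted p 0.818 and 0.828), with 95% intervals from -1.31 to 0.82 and from -0.62 to 1.51. Both libraries labelled old MIT-001 lay above both labelled old PBS, as in 27.2% of all genes, and young PBS spanned the values of the other groups. Near-identical copies of Ccl21a (Ccl21b, Ccl21d, Gm13304 and Gm10591) can share its reads, and the 5 genes summed to 557.5 and 236.3, 398.1 and 243.6, and 419.9 and 410.8 TPM in the same order.

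Ccl17, a ligand of Ccr4 made by dendritic cells, was at 23.4 and 2.18 TPM in young PBS, 4.25 and 5.20 TPM in old PBS, and 9.55 and 5.20 TPM in old MIT-001. The young libraries were the highest and the lowest of the 6. Its log2 fold change of -0.63 ± 0.91 for old PBS against young PBS (adjusted p 0.767) was 0.84 without replicate 1 labelled young PBS. Cxcl13, which draws B cells into follicles of lymphoid tissue, was at 26.8 and 0.950 TPM in young PBS, 0.595 and 1.07 TPM in old PBS, and 3.42 and 1.12 TPM in old MIT-001. A single library, replicate 1 labelled young PBS, held most of its signal, and the log2 fold change of -2.02 ± 1.18 (0.409) was -0.10 without it. The B cell and plasma cell markers were also highest in that library, with a summed level of 1405 TPM and 184.2 TPM in the other young library, and their part in the result was not tested.

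Pf4, platelet factor 4, which macrophages also express, was at 13.9 and 20.3 TPM in young PBS, 5.48 and 7.44 TPM in old PBS, and 10.7 and 17.0 TPM in old MIT-001. Old PBS lay below the 4 other libraries, and young PBS and old MIT-001 overlapped. The log2 fold changes were -1.27 ± 0.35 for old PBS against young PBS (adjusted p 0.222) and 0.97 ± 0.35 for old MIT-001 against old PBS (0.352). Beside it, 6 platelet markers summed to 2.19 to 4.19 TPM over all libraries, and Gp9, Gp5 or Gp6 was listed at 0 in some.

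Cxcl17, a mucosal ligand, was at 1.41 and 3.33 TPM in young PBS, 0.367 and 0.0926 TPM in old PBS, and 1.41 and 7.66 TPM in old MIT-001. Its MIT-001 libraries differed from each other more than its young libraries did. The log2 fold change for old MIT-001 against old PBS was 1.90 ± 0.65 (adjusted p 0.340), and that for old PBS against young PBS was -1.40 ± 0.65 (0.318). The antisense gene 4732471J01Rik covers all 12834 bases of Cxcl17 at up to 3.31 TPM. The 8 surface and oviduct epithelium markers summed to 274.4 and 387.4 TPM in young PBS, 131.1 and 124.1 TPM in old PBS, and 1157 and 823.5 TPM in old MIT-001. The marker sum was higher in replicate 1 labelled old MIT-001, where Ovgp1 was at 567.1 TPM against 215.4 TPM in replicate 2. Krt19, Epcam and Pax8 were also higher in replicate 1. Krt7, Krt18, Upk3b and Msln were higher in replicate 2, which had the higher Cxcl17 value. The part of these markers in the Cxcl17 result was not tested. Ccl19, Ccl22, Ccl25 and Ccl28 ranged from 0.336 to 3.25, 0 to 1.08, 2.17 to 4.03 and 0.667 to 3.29 TPM, and Ccl20 was listed at 0 in every library.

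Cxcl16 and Cx3cl1 are made as transmembrane proteins and shed by the proteases Adam10 and Adam17. Cxcl16, the ligand of Cxcr6, was at 36.7 and 66.7 TPM in young PBS, 14.2 and 15.9 TPM in old PBS, and 44.6 and 26.7 TPM in old MIT-001. The old PBS libraries were close together and below all others, and the other groups overlapped. Old PBS against young PBS gave a log2 fold change of -1.66 ± 0.37 (adjusted p 0.210), with -2.08 (0.0428) without replicate 1 labelled young PBS and a range of adjusted p from 0.0428 to 0.867 over all alternatives. The call without replicate 1 rests on a single young library, with the spread taken from the other groups. Old MIT-001 against old PBS gave 1.15 ± 0.37 (0.314). Cxcl16 overlaps Zmynd15 on the opposite strand by 552 bases.

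Cx3cl1, the ligand of the macrophage and microglia receptor Cx3cr1, was at 18.4 and 34.6 TPM in young PBS, 17.1 and 18.0 TPM in old PBS, and 20.8 and 32.5 TPM in old MIT-001. The lower young library was only just above old PBS. Its log2 fold changes were -0.50 ± 0.37 for old PBS against young PBS (adjusted p 0.511) and 0.54 ± 0.37 for old MIT-001 against old PBS (0.686). Xcl1, the XC ligand released by NK and CD8 T cells, ranged from 0.538 to 1.77 TPM.

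Many of these ligands are neighbours, and the low old PBS values recurred along 2 blocks of chromosome 11 (mm10, neighbours less than 200 kb apart). Ccl2, Ccl7, Ccl11, Ccl12 and Ccl8 lie between 82035577 and 82116799, and Ccl5, Ccl9, Ccl6, Ccl3 and Ccl4 between 83525778 and 83664683. In all 5 genes of each block, each of them tested, both libraries labelled old PBS lay below the 4 others, beside 8.08% of all genes tested. These are the same 10 inflammatory CC ligands counted above, so their place on the chromosome adds no separate result. The first block summed to 103.6 and 25.2 TPM in young PBS, 3.06 and 6.27 TPM in old PBS, and 56.2 and 33.9 TPM in old MIT-001. The second summed to 88.7 and 24.0, 7.37 and 9.50, and 38.2 and 24.9 TPM in the same order. On chromosome 5 the same order held for Pf4, Cxcl1 and Cxcl2, the 3 genes tested of 7 between 90759298 and 90905938, and for Cxcl9 and Cxcl10, the 2 tested of 3 between 92321331 and 92363296. On chromosome 8 it held for Cx3cl1 but not for Ccl17, the 2 tested of 3 between 94745684 and 94812038. Ccl19 and Ccl21a, on chromosome 4 between 42754525 and 42773991, did not share it. Cxcl12 lies apart on chromosome 6 (117168535 to 117181368), Cxcl14 on chromosome 13 (56288643 to 56296811) and Cxcl16 on chromosome 11 (70454389 to 70459984).

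**Figure D3:**
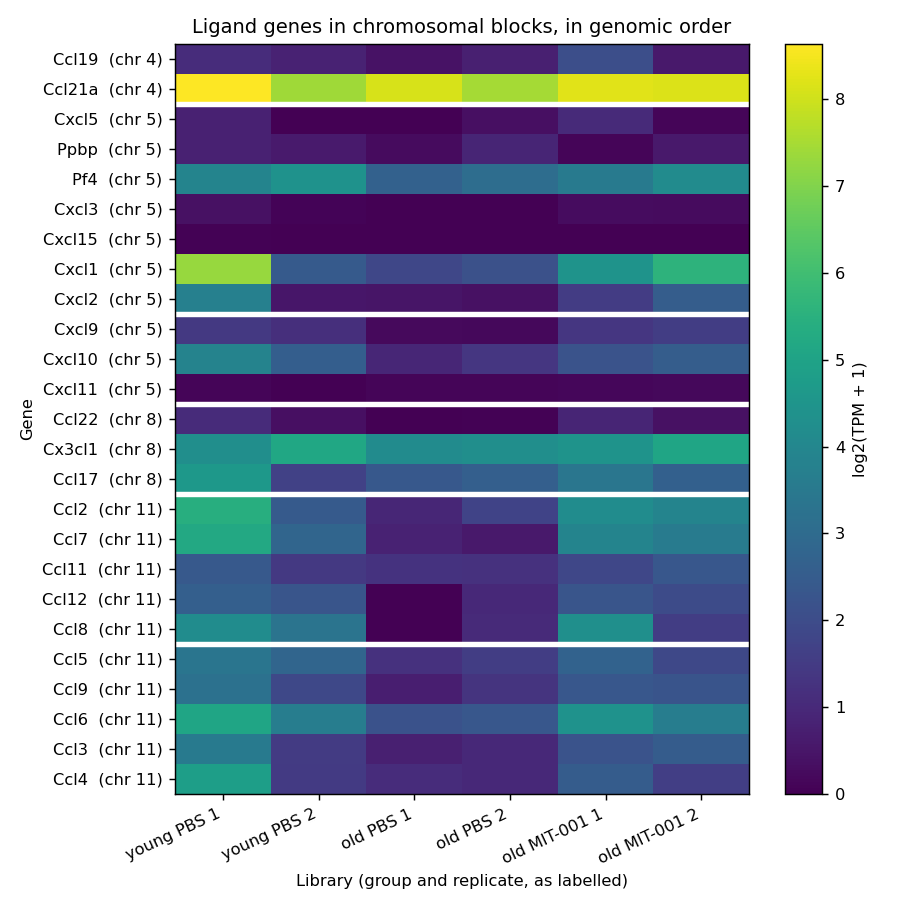
Log2(TPM + 1) of the 25 ligands that lie in 6 chromosomal blocks, in genomic order from top to bottom, with 1 column per library and white lines between blocks. Both chromosome 11 blocks are dark in the 2 old PBS columns, and Ccl21a is bright in every column.

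Of 18 chemokine receptors, 8 reached 1 TPM in any library and 7 were tested, of which 0 passed the adjusted threshold. Cxcr6, the receptor of Cxcl16 on T and NK cells, was at 4.46 and 3.11 TPM in young PBS, 0.491 and 0.352 TPM in old PBS, and 4.96 and 2.59 TPM in old MIT-001. Its groups were separated as those of its ligand were, with log2 fold changes of -1.74 ± 0.37 (limma, adjusted p 0.210) and 1.70 ± 0.37 (0.185). Cxcr6 was the only receptor tested that stood at an unadjusted p below 0.05. It was lower in the first contrast, beside 3.55% of all genes, and higher in the second, beside 7.45%. Cx3cr1 was at 7.65 and 24.0 TPM, 4.40 and 6.78 TPM, and 10.2 and 14.2 TPM (log2 fold changes -1.18 ± 0.54 and 1.01 ± 0.54). Ccr2 was at 2.61 and 1.30 TPM, 0.621 and 1.78 TPM, and 4.82 and 2.32 TPM, so its groups overlapped between ages while those of its ligands Ccl2, Ccl7 and Ccl12 did not. Cxcr4 was between 8.96 and 28.5 TPM and overlapped in all contrasts, as did its ligand Cxcl12. Of the 7 tested, 6 had a log2 fold change below 0 in old PBS against young PBS, beside 31.9% of all genes. In old MIT-001 against old PBS 7 had one above 0, beside 53.5% of all genes.

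All 5 atypical receptors, which bind chemokines without G protein signalling, were tested and 0 passed the adjusted threshold. At an unadjusted p below 0.05 Ackr3 alone was called, higher in old MIT-001 against young PBS. In that contrast 17.1% of all genes were higher, a share close to 1 of 5. Ackr3, the scavenger of Cxcl12, was at 17.7 TPM in both young PBS libraries, 18.9 and 20.7 TPM in old PBS, and 25.1 and 34.1 TPM in old MIT-001 (log2 fold change 0.69 ± 0.24 for old MIT-001 against young PBS, adjusted p 0.213). Of 21 signal transducers, 5 were lower and 1 higher at an unadjusted p below 0.05 in old PBS against young PBS, beside 3.55% and 14.6% of all genes, with 0 past the adjusted threshold. Rac2, a GTPase of blood cells, was at 32.0 and 15.8 TPM in young PBS, 3.14 and 3.30 TPM in old PBS, and 11.7 and 6.44 TPM in old MIT-001 (log2 fold change -2.48 ± 0.43 for old PBS against young PBS, adjusted p 0.159). Vav1 and Dock2, which activate Rac proteins in leukocytes, had log2 fold changes of -1.54 ± 0.33 and -1.24 ± 0.30. Gnai3, a broadly expressed G protein subunit, had 0.89 ± 0.29.

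Of the 6 proteases that cut chemokines, none passed the adjusted threshold. At an unadjusted p below 0.05 Adam10 was higher and Mmp12 lower in old PBS against young PBS, beside 14.6% and 3.55% of all genes. The 1 of 6 called higher there is close to the share of all genes. Dpp4 and Mmp12 were higher in old MIT-001 against old PBS, beside 7.45% of all genes. In old MIT-001 against young PBS 2 of the 6 were higher, beside 17.1% of all genes. Dpp4, which trims the N terminus of several ligands, Cxcl12 and Cxcl10 among them, was at 1.47 and 0.861 TPM in young PBS, 0.800 and 0.964 TPM in old PBS, and 6.99 and 5.12 TPM in old MIT-001. Both MIT-001 libraries lay above the 4 others, with log2 fold changes of 1.90 ± 0.33 against old PBS (adjusted p 0.117) and 1.71 ± 0.33 against young PBS (0.161). Mmp12, the macrophage elastase, was at 4.60 and 1.57 TPM, 0.304 and 0.522 TPM, and 3.96 and 2.80 TPM in the same order (log2 fold changes -1.43 ± 0.45 and 1.63 ± 0.45 for the age and treatment labels). Adam10, which sheds Cxcl16, was at 33.8 and 36.3 TPM in young PBS, 58.8 and 92.8 TPM in old PBS, and 70.4 and 80.4 TPM in old MIT-001 (log2 fold change 1.06 ± 0.26 for old PBS against young PBS, adjusted p 0.212).

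Markers of some cell types that make or answer these ligands differed between the same groups. All 7 macrophage markers were lower in both libraries labelled old PBS than in the 4 others, with none at 0, and Cd68 had log2 fold changes of -2.33 for old PBS against young PBS and 1.36 for old MIT-001 against old PBS. Markers of T and NK cells, 7 genes, summed to 14.0 to 23.8 TPM in young PBS, 3.19 to 3.70 TPM in old PBS and 10.8 to 21.2 TPM in old MIT-001, and in 6 of the 7 both old PBS libraries lay below the 4 others, beside 8.08% of all genes tested. The 5 monocyte markers did not separate young PBS from old PBS by their sum. They summed to 224.8 and 1215 TPM in young PBS, 499.3 and 220.3 TPM in old PBS, and 673.9 and 1418 TPM in old MIT-001. S100a4 alone was at 95.6 and 1112 TPM, 440 and 178.2 TPM, and 564.7 and 1344 TPM in the same order. In 2 of the 5, Ly6c2 and Plac8, both old PBS libraries lay below the 4 others, beside 8.08% of all genes tested. All 4 monocyte markers tested had a log2 fold change below 0 for old PBS against young PBS, beside 31.9% of all genes. For old MIT-001 against old PBS all 4 were above 0, beside 53.5%. Of the 5 mast cell markers, Cpa3, Mcpt4, Tpsb2 and Cma1 were at 0 in both old PBS libraries. The fifth, Kit, which oocytes also express, went the other way, at 7.74 and 3.50 TPM in young PBS, 15.4 and 17.3 TPM in old PBS, and 6.215 and 5.998 TPM in old MIT-001. Neutrophil markers, the cells that Cxcl1 attracts, summed to 2.09 to 18.5 TPM over the 6 libraries, highest in a library labelled old PBS, and Ly6g was listed at 0 in 4 of 6. A list of 10 immediate early genes, chosen after values were seen, summed to 1280 to 2154 TPM in young PBS, 553.7 to 903.5 TPM in old PBS and 2162 to 3367 TPM in old MIT-001. The part of these lists was not tested either, and in whole ovary fewer cells of a type and less RNA per cell cannot be told apart.

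**Figure D4:**
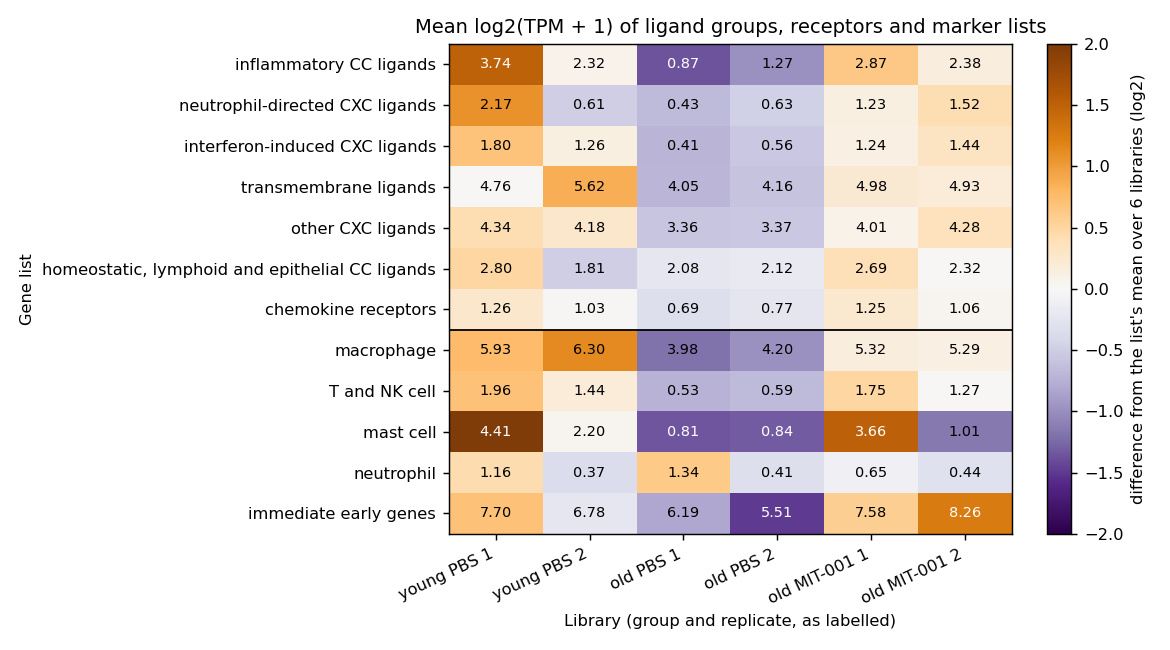
Mean log2(TPM + 1) of ligand groups and chemokine receptors (above the line) and of marker lists (below it) in each library, printed in the cells and coloured by the difference from the list's mean over the 6 libraries. Inflammatory CC ligands stand at 0.87 and 1.27 in old PBS against 2.32 to 3.74 elsewhere, macrophage markers at 3.98 and 4.20 against 5.29 to 6.30, and neutrophil markers do not separate the groups.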

How the data were processed

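Messenger RNA of 6 ovary libraries was sequenced. The submitters' processing notes name Trimmomatic, HISAT2, StringTie and the build mm10, with no versions. The annotation and whether strand was used are not given in the sources examined. TPM, as deposited and per the file headers, is scaled for transcript length and sums to a constant in each library. FPKM, also deposited, differs from TPM by 1 constant per library (1.89 to 2.31). Coverage, a deposited signal of mean read depth per gene, was used for depth alone, from its ratio to FPKM, which was the same in 29.6% to 31.7% of genes.

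Genes were matched by NCBI Gene ID to RefSeq (GRCm38.p6); 98 rows per library, with 0.0145% to 0.0301% of TPM, did not match and were left out of the tests. No read counts were used, so precision is known from the spread between libraries only. Genes at 1 TPM or more in at least 2 libraries were fitted as log2(TPM + 1), which understates the change of low genes, with 1 mean per group over all 6 libraries in limma 3.58.1 (R 4.3.3, trended empirical Bayes, 3 residual and 3.12 prior degrees of freedom, two-sided, Benjamini-Hochberg). Errors of fold changes are standard errors.

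The ligands and gene lists were chosen with earlier results of these data known. Ligands with a group mean of at least 5 TPM, or past an unadjusted p of 0.05, are given by library. Up to 3 genes with the smallest p per comparison were considered from each pathway list, and other named genes were chosen after their values were seen. The fit was checked on simulated data. Alternatives were log2(TPM + 0.1), a filter at 5 TPM or none, FPKM, median centring, quantile normalization, no trend, the 4 libraries compared alone, the replicate number as a block and each library left out. Summing Ccl21a with its copies was added after seeing the data.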

Additional observations from a re-analysis of the deposited data

How the results depend on the processing

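With 2 libraries per group and no read counts, precision rests on the spread between libraries, and a p above the threshold does not show that levels were equal. Values under about 1 TPM are the least certain. For old PBS against young PBS the median log2 fold change of the ligands was -2.14 with a pseudocount of 0.1, -0.92 with no filter and -1.79 after centring. Leaving out each library gave medians from -1.60 to -0.74, 6 to 19 ligands lower and 0 to 1 higher at an unadjusted p below 0.05, and 0 to 2 past the adjusted threshold. Between old MIT-001 and old PBS the median was 1.27 with a pseudocount of 0.1, 0.80 with no filter, 0.72 with FPKM, 0.89 after centring and 0.75 after quantile normalization. The ligands higher at the unadjusted p numbered 7 of 34 with no filter, beside 6.34% of all genes. They numbered 6 of 14 with a filter at 5 TPM (6.03%) and 7 of 28 after quantile normalization (5.51%). With the 4 libraries compared alone 3 passed the adjusted threshold, beside 1.22% of all genes called higher. Leaving out each library gave medians from 0.92 to 1.13, 3 to 15 ligands higher and 0 to 3 past the adjusted threshold. For old MIT-001 against young PBS the median was 0.0062 with a pseudocount of 0.1, -0.52 after centring and -0.66 after quantile normalization. In the last 2, 4 and 3 ligands were lower at the unadjusted p, beside 7.96% and 4.61% of all genes. Leaving out each library gave medians from -0.44 to 0.39. The cause was not tested.

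Signs of single ligands turned as follows. For old PBS against young PBS, Cxcl12 had -0.051 with FPKM, -0.22 after centring and -0.061 after quantile normalization, and Cxcl14 had -0.041 with FPKM and -0.21 after centring. For old MIT-001 against old PBS, Cxcl12 had -0.028 after centring. For old MIT-001 against young PBS, Cxcl2 had 0.27 with a pseudocount of 0.1. With FPKM Ccl2 had -0.088, Cx3cl1 -0.10 and Cxcl1 -0.10. After centring Ccl2 had -0.29, Ccl21a -0.21, Cx3cl1 -0.37, Cxcl1 -0.27, Cxcl12 -0.25, Cxcl14 -0.084 and Cxcl9 -0.25. After quantile normalization Ccl2 had -0.37, Cx3cl1 -0.25, Cxcl1 -0.24 and Cxcl9 -0.26. With each library left out, log2 fold changes whose sign turned ranged as follows for old PBS against young PBS: Ccl17 -2.09 to 0.84, Ccl21a -0.86 to 0.37, Cxcl12 -0.15 to 0.35 and Cxcl14 -0.50 to 0.71. For old MIT-001 against old PBS they were Cxcl14 -0.035 to 0.48 and Cxcl12 -0.13 to 0.27. For old MIT-001 against young PBS they were Ccl17 -1.59 to 1.35, Ccl3 -1.15 to 0.86, Ccl4 -2.79 to 0.59, Ccl6 -1.05 to 0.37, Ccl7 -1.45 to 0.92, Ccl9 -0.92 to 0.41, Cx3cl1 -0.40 to 0.48, Cxcl12 -0.087 to 0.41, Cxcl13 -3.18 to 0.65, Cxcl14 -0.27 to 0.94, Cxcl2 -1.71 to 1.51, Ccl2 -1.36 to 1.61, Ccl21a -0.41 to 0.81, Cxcl1 -2.28 to 2.57, Pf4 -0.61 to 0.015, Ccl8 -2.18 to 0.54 and Cxcl17 -0.42 to 1.42.

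The libraries share replicate numbers but only 2 of them, and deviations of same-numbered libraries correlated at 0.00656, 0.24 and 0.18, so the numbers were not taken as pairs. With the replicate number as a block, 14 ligands were lower and 0 higher for old PBS against young PBS at the unadjusted p. The shares of all genes were 3.82% and 13.6%. For old MIT-001 against old PBS 10 were higher and 0 lower, beside 8.06% and 4.36%. Between old MIT-001 and young PBS 0 ligands were called, beside 17% of all genes higher and 0.856% lower. With this block 0 ligands passed the adjusted threshold.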
